A study of Mus musculus with 16 samples.

Results

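The genes described here are 5 annexins (Anxa1, Anxa2, Anxa4, Anxa5 and Anxa6) and 4 S100 genes (S100a4, S100a6, S100a10 and S100a11), chosen by name from a table of 24421 mouse genes. All 9 passed the filter on low counts, which left 13554 genes for testing. The filter asks for about 10 reads, here a count relative to library size (CPM) of 0.127, in at least 4 libraries: S100a4 reached that level in 10 of 16 libraries, Anxa1 in 12, S100a6 in 14, and the other 6 genes in all 16. RNA was sequenced from lymph node T cells of C57BL/6 mice with no further genetic change or treatment given in the labels. The cells were naive by their gate, which included absence of CD25 and low CD44. The 4 groups were CD4+ CD5hi, CD4+ CD5lo, CD8+ CD5hi and CD8+ CD5lo cells, where CD5hi is the third of a lineage richest in surface CD5 and CD5lo the third poorest in it. Each group had 4 biological replicates; the sources used here do not say whether they were separate mice, so p-values measure the spread between these samples.

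Annexins bind phospholipid membranes when calcium rises, and take part in membrane repair, vesicle traffic and the organisation of membrane domains. S100 proteins are small calcium sensors of the EF-hand type that work as dimers by binding target proteins, annexins among them; S100A10 is the exception that no longer needs calcium and pairs with annexin A2 in a stable complex at the plasma membrane. In T cells, RNA of several of these genes is known to be higher in effector and memory cells than in naive cells. CD5 is a surface protein that dampens signalling by the antigen receptor, and naive T cells that respond more strongly to self peptides carry more of it.

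Libraries held 71447252 to 93418385 counts. Cd5 RNA was higher in CD5hi than in CD5lo cells by 1.31 ± 0.07 (log2, SE) among CD8 and by 2.44 ± 0.07 among CD4 cells, the direction the labels give. Cd8a was at 1563 to 2140 CPM in CD8 and 0.692 to 11.4 CPM in CD4 libraries, and Cd4 at 0.415 to 62.2 CPM in CD8 and 970.9 to 1268 CPM in CD4 libraries; Il2ra, which encodes CD25, was at 8.95 CPM or less throughout. The 10 T cell identity genes, none at 0, summed to 6426 to 6714 CPM in CD8 CD5hi and 6947 to 7159 CPM in CD8 CD5lo libraries, without overlap, and to 7010 to 7436 CPM in CD4 CD5hi and 7071 to 7697 CPM in CD4 CD5lo libraries. One of them, Cd247, the zeta chain of the receptor complex, was called lower in CD5hi cells of both lineages. It was at 313.8 ± 24.5 CPM in CD8 CD5hi against 382.0 ± 19.6 CPM in CD8 CD5lo cells (edgeR adjusted p = 0.0114, called in 13 of 16 fits with 1 library left out). In CD4 cells it was at 423.3 ± 18.5 CPM in CD4 CD5hi against 510.4 ± 26.3 CPM in CD4 CD5lo cells (adjusted p = 0.0260, called in 11 of 16; 0.0624 without the 3 libraries described next). The 12 B cell markers summed to 925.6 CPM in replicate 4 of CD8 CD5hi, to 574.5 CPM in replicate 3 of CD8 CD5lo and to 366.3 CPM in replicate 3 of CD4 CD5lo, against 10.7 to 68.1 CPM in the other 13 libraries; 11 of the 12 markers were higher in each of the 3 than in any of the 13, and none was at 0 counts over the 13. The 11 myeloid markers summed to 59.6 to 80.5 CPM in the 3 libraries and 47.8 to 58.0 CPM in the others, with 7 of 11 higher in each of the 3. Cd4 was at 62.2 and 27.2 CPM in the 2 CD8 libraries among the 3, against at most 2.51 CPM in the remaining 6 CD8 libraries. Values with these libraries left out are given beside some of the results they touch. They are not given beside all, among them Anxa5 by CD5 level and Anxa2 by CD5 level in CD4 cells. The choice of these libraries was made once their marker levels were known. In bulk RNA such as this, fewer cells of a type and less RNA per cell cannot be told apart.

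The genes lie on 5 chromosomes of GRCm38 (GENCODE vM21). The 4 S100 genes are on chromosome 3, where S100a4 and S100a6 are neighbours separated by 6836 bp and S100a11 and S100a10 by 28792 bp, the pairs being 2896306 bp apart. Anxa5 is also on chromosome 3, at 36448923 to 36475894 on the minus strand. Anxa2 is on chromosome 9 at 69453620 to 69491795 (plus strand), Anxa6 on chromosome 11, Anxa1 on chromosome 19 and Anxa4 on chromosome 6. No exonic base of the 9 genes is shared with another gene of the table. S100a11 has 2 near-identical processed pseudogenes, Gm12854 and Gm7665, with 98.99% and 98.65% identity over 297 bases. S100a4 matches the read-through transcript Gm42674 at 100% over 302 bases. None of the 3 is in the count table, so how reads from them were assigned is not known, and S100a11 and S100a4 levels are uncertain to that extent.

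Promoter sequences (250 bases before and 50 bases from the start site on, RefSeq, GRCm38.p6) were found for 7 of the 9 genes. They are shown for Anxa2, Anxa5 and S100a11, the members whose RNA differed with CD5 level in at least 1 lineage. Capitals mark matches, on either strand, to any of the motifs searched: AP-1 (TGANTCA), NF-kB (GGGNNTTTC), T-box (AGGTGTGA), KLF (CCACACCC), the GATA motif with the letters AGATAA, and the TATA box with the letters TATAAA.
Anxa2, chr9:69453433-69453732, plus strand: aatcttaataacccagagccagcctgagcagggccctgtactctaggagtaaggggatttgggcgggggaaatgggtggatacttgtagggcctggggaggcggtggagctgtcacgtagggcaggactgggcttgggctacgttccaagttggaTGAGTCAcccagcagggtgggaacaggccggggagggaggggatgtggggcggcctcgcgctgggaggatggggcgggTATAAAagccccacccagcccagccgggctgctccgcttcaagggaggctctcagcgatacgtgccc
S100a11, chr3:93520246-93520545, plus strand: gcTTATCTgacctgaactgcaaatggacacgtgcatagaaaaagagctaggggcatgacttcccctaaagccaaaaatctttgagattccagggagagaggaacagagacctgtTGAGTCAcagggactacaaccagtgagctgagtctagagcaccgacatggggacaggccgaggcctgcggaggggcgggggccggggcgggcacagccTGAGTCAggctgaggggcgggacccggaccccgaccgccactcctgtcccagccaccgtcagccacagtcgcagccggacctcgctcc
Anxa5, chr3:36475838-36476137, minus strand: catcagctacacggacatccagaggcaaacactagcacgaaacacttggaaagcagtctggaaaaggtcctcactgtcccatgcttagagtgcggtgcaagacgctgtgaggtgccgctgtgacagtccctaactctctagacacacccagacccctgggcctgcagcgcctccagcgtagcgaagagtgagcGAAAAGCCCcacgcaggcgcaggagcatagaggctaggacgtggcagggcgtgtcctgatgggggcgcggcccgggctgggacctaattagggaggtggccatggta
The Anxa2 window holds 1 AP-1 match at position -95 and 1 TATA match at -17, counted from the start site. The S100a11 window holds AP-1 matches at -136 and -38 and a GATA match at -248, and the Anxa5 window an NF-kB match at -57 on the reverse strand. Of 32851 promoter windows of this length, 7.81% hold the AP-1 motif, 4.36% the NF-kB motif, 11.2% the GATA motif and 13.6% the TATA motif. Among the members not shown, Anxa4 has 2 windows, with an NF-kB match at -55 in window 1 and a GATA match at -43 in window 2. Anxa1 and S100a4 have TATA matches at -32 and -31. No T-box match was found in the 7 genes' windows (1.28% of all windows hold one), and a KLF match, held by 3.56% of windows, only in window 1 of Anxa4. The NF-kB motif was shortened after matches to a longer form had been seen; the Anxa4 match was found with both forms, the Anxa5 match with the shorter form alone. These matches describe the letters and do not show binding.

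Per kilobase of exon, Anxa6 was by far the most abundant annexin. It averaged 231.6 ± 11.3 RPKM (CPM per kilobase of exon, mean ± SD, n = 4) in CD4 CD5hi, 248.7 ± 21.98 in CD4 CD5lo, 348.3 ± 8.99 in CD8 CD5hi and 315.7 ± 9.40 in CD8 CD5lo cells. Anxa6, an annexin with a doubled core that links membranes to actin and cholesterol-rich domains, thus made up 79.4, 78.8, 84.7 and 83.1% of the summed RPKM of the 12 annexin genes in these groups. Anxa5, best known for binding phosphatidylserine, followed at 22.3 to 34.4 RPKM (group means), next to Anxa11, not a member, at 23.3 to 25.9 RPKM. Anxa2 lay at 0.72 to 6.48 RPKM, Anxa4 at 0.14 to 0.32 and Anxa1, whose protein is a regulator of inflammation, at 0.06 to 0.14 RPKM. Among 16 S100 genes, S100a10 held the largest share, 60.3, 55.1, 54.2 and 50.9% of the summed RPKM in CD4 CD5hi, CD4 CD5lo, CD8 CD5hi and CD8 CD5lo cells. S100a11 held 17.1 and 22.7% in CD4 CD5hi and CD4 CD5lo cells and 31.5 and 33.7% in CD8 CD5hi and CD8 CD5lo cells. The scarce S100a4 (0.16 to 1.56 RPKM) and S100a6 (0.20 to 0.84 RPKM), both known for high levels in motile and memory-type cells, held 0.0982 to 0.526% and 0.131 to 0.279% of the S100 sum in the group means. Gene lengths come from an annotation that may differ from that used for counting, so RPKM values are approximate.

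**Figure D1:**
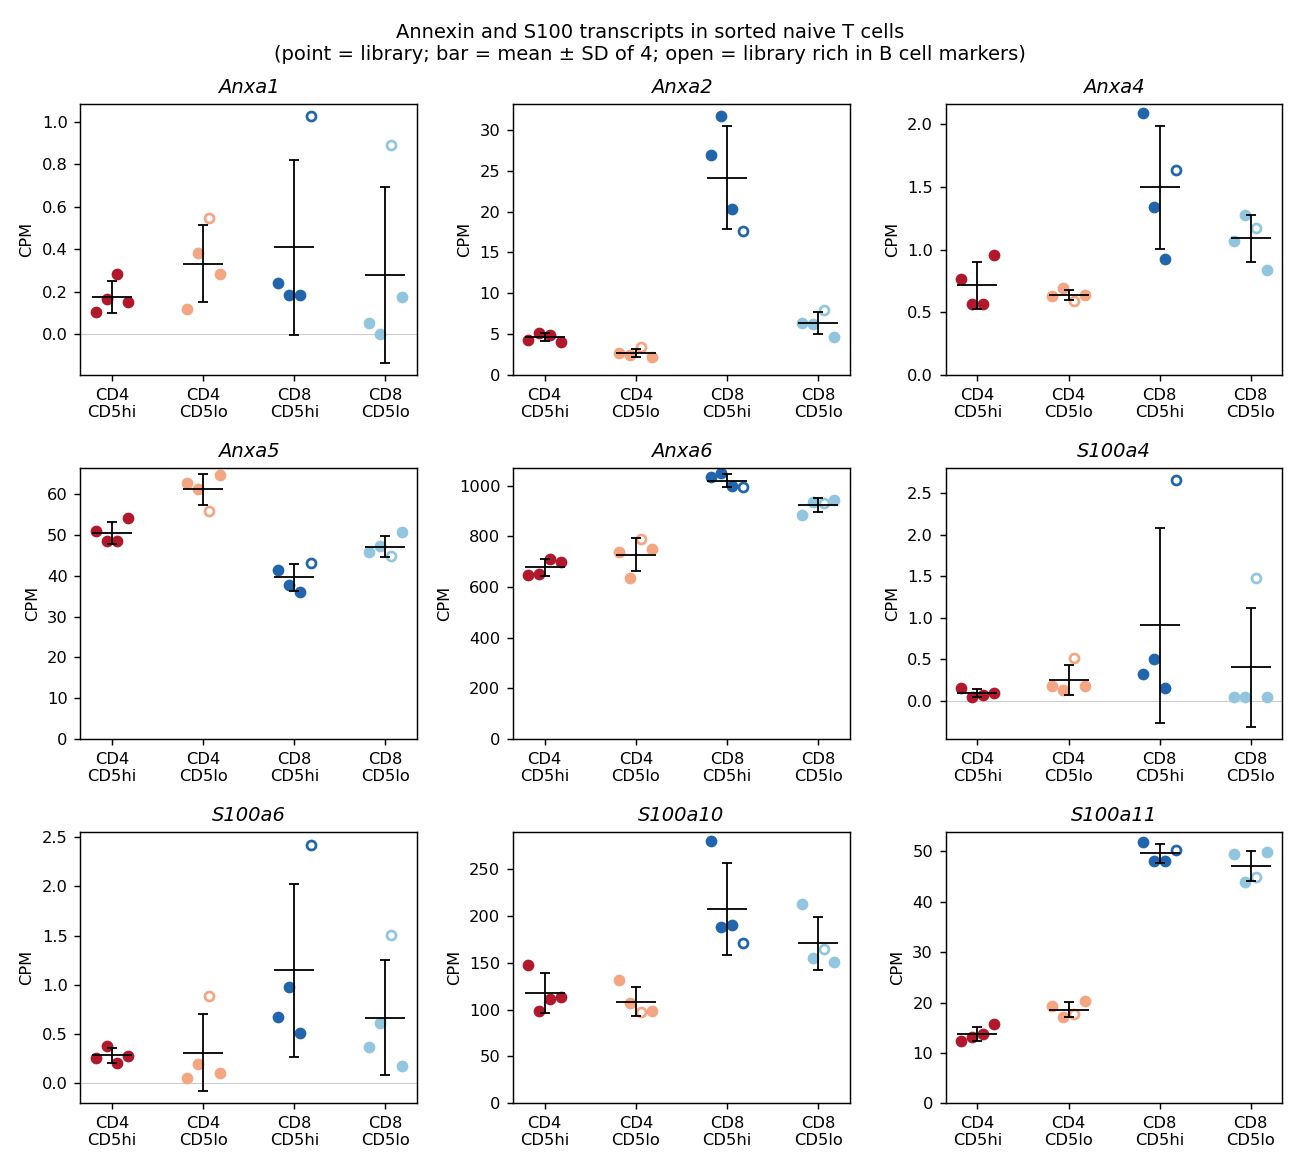
TMM-normalised CPM (y axis, from 0) of each gene in the 16 libraries of the 4 groups (x axis), with group mean ± SD (n = 4) as bars and open points for the 3 libraries rich in B cell markers. Anxa2 stands out in CD8 CD5hi cells, at 17.7 to 31.7 CPM, S100a11 is higher in all CD8 libraries, at 44.0 to 51.8 CPM, and the highest S100a4 points are open.

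The first question was whether these genes differ with CD5 level among naive CD8 cells. Anxa2 rose and Anxa5 fell in CD8 CD5hi cells, and the other 7 genes were not called, where a call is an edgeR quasi-likelihood p below 0.05 after Benjamini-Hochberg adjustment over all genes tested. Over all genes, 5.95% were called higher and 3.51% lower in this comparison, against 1 higher and 1 lower of the 9 members. The members' median log2 change was 0.46, against -0.00 over all genes tested. This median is the Anxa4 value, which was not called. Above it lie Anxa2 and the uncalled Anxa1, S100a4 and S100a6, which had few reads. The median therefore does not show a shift of the members as a set.

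Anxa2 encodes the annexin that carries S100A10 at the membrane. It had 26.9, 31.7, 20.4 and 17.7 CPM in CD8 CD5hi libraries (replicates 1 to 4), against 6.37, 6.21, 7.95 and 4.67 CPM in CD8 CD5lo libraries. Every CD5hi library was above every CD5lo library. The difference was 3.84-fold, a log2 change of 1.94 ± 0.19 (SE; 95% interval 1.53 to 2.35; edgeR adjusted p = 2.14e-05). It was called in 16 of 16 fits that each left out 1 library, and was 2.21 (adjusted p = 6.25e-06) with the 3 B-marker-rich libraries left out.

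Anxa5 had 41.5, 37.8, 36.0 and 43.2 CPM in CD8 CD5hi libraries, against 45.7, 47.3, 44.9 and 50.8 CPM in CD8 CD5lo libraries. The groups did not overlap, though the highest CD5hi library came close to the lowest CD5lo library. Anxa5 had a log2 change of -0.25 ± 0.07 (edgeR adjusted p = 0.0430), and the call held in 7 of 16 fits with 1 library left out. It was lost without replicate 1, 2 or 4 of CD8 CD5lo, without replicate 2 or 3 of CD8 CD5hi, and without CD4 CD5lo replicate 1 or CD4 CD5hi replicate 1, 2 or 3, with adjusted p up to 0.179.

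Anxa6 had 1035, 1050, 1001 and 996 CPM in CD8 CD5hi libraries, against 884.5, 937.3, 932.9 and 945.4 CPM in CD8 CD5lo libraries. These groups did not overlap either, but the log2 change of 0.14 ± 0.06 was not called (edgeR adjusted p = 0.195; 95% interval 0.01 to 0.28). Groups did not overlap for 3 of the 9 members, Anxa2, Anxa5 and Anxa6, and for 14.8% of all genes tested. The log2 change of S100a10, the annexin A2 partner, was 0.28 ± 0.16 (95% interval -0.07 to 0.63; adjusted p = 0.336). For S100a11, whose protein pairs with annexin A1, it was 0.07 ± 0.08 (95% interval -0.09 to 0.24; adjusted p = 0.644). For Anxa4, an annexin of secretory epithelia, it was 0.46 ± 0.25 (adjusted p = 0.299).

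S100a4, S100a6 and Anxa1 had few reads, and their CD8 comparison turned on single libraries. S100a4 had 24, 44, 14 and 209 reads (0.321, 0.5, 0.162 and 2.66 CPM) in CD8 CD5hi libraries, against 4, 4, 106 and 4 reads (0.0528, 0.0469, 1.48 and 0.0431 CPM) in CD8 CD5lo libraries. The highest library of each group was the one rich in B cell markers. The log2 change was 1.19 ± 1.02 (edgeR adjusted p = 0.551) with all libraries, 2.77 (adjusted p = 0.00446) without the 3 such libraries, 4.22 (adjusted p = 0.0122) without CD8 CD5lo replicate 3 alone and -0.28 (adjusted p = 0.895) without CD8 CD5hi replicate 4 alone. Without the 3 libraries, 7.01% of all genes were called higher and 4.04% lower. The S100a6 change was 0.79 ± 0.74 (adjusted p = 0.586; 0.92 without the 3 libraries, adjusted p = 0.239) and that of Anxa1 0.57 ± 0.91 (adjusted p = 0.775; 1.39 without them, adjusted p = 0.278). Anxa1 had 0 reads in CD8 CD5lo replicate 2, which allows up to 0.0351 CPM by counting error alone if counts are independent. Low counts were mostly even numbers, so this limit may be too low.

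In CD4 cells, the same question gave 3 calls: Anxa2 rose, and Anxa5 and S100a11 fell in CD5hi cells. Over all genes, 2.68% were called higher and 1.4% lower, and groups did not overlap for 9.29% of genes, against the 3 called members. With the replicate number as a block, which the pairing check permits in CD4 cells, 5.69% of genes were called higher and 3.99% lower; the same 3 members were called. The members' median log2 change was -0.14, against -0.01 over all genes. This median is the S100a6 value, with an SE of 0.79 and 4 to 68 reads per CD4 library. It therefore does not show a shift of the members as a set.

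Anxa2 had 4.30, 5.13, 4.85 and 4.07 CPM in CD4 CD5hi libraries, against 2.70, 2.48, 3.38 and 2.20 CPM in CD4 CD5lo libraries. All CD5hi libraries were above all CD5lo libraries. The difference was 1.70-fold, a log2 change of 0.77 ± 0.20 (edgeR adjusted p = 0.0342). Leaving out a single CD4 library, other than CD4 CD5lo replicate 3, ended the call (adjusted p 0.0550 to 0.128), as did limma voom in place of edgeR (adjusted p = 0.152).

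S100a11 had 12.4, 13.2, 13.8 and 15.7 CPM in CD4 CD5hi libraries, against 19.3, 17.1, 17.7 and 20.4 CPM in CD4 CD5lo libraries. Here every CD5hi library was below every CD5lo library. This gave a log2 change of -0.43 ± 0.08 (edgeR adjusted p = 0.00405), called in 16 of 16 fits with 1 library left out.

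Anxa5 had 50.95, 48.5, 48.4 and 54.1 CPM in CD4 CD5hi libraries, against 62.8, 61.3, 55.9 and 64.8 CPM in CD4 CD5lo libraries. Again the groups did not overlap, and the direction was that seen in CD8 cells. The log2 change was -0.28 ± 0.07 (edgeR adjusted p = 0.0455), a call kept in 6 of 16 fits with 1 library left out. It was lost without replicate 1, 2 or 4 of CD4 CD5lo, without replicate 1, 2 or 3 of CD4 CD5hi, and without CD8 CD5hi replicate 2 or CD8 CD5lo replicate 1, 2 or 3, with adjusted p up to 0.138.

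The remaining members were not called in CD4 cells. The log2 change was -0.10 ± 0.06 for Anxa6 (edgeR adjusted p = 0.615), 0.12 ± 0.16 for S100a10 (adjusted p = 0.938) and 0.16 ± 0.26 for Anxa4 (adjusted p = 0.955). For S100a4 it was -1.42 ± 1.16 (-0.80 without the 3 B-marker-rich libraries), for Anxa1 -0.91 ± 0.94 (-0.56 without them) and for S100a6 -0.14 ± 0.79, all with wide errors. The S100a6 value changed sign to 1.28 without CD4 CD5lo replicate 3, the library with 0.888 CPM, where the other 3 CD5lo libraries had 0.0517 to 0.190 CPM and CD5hi libraries 0.206 to 0.379 CPM.

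**Figure D2:**
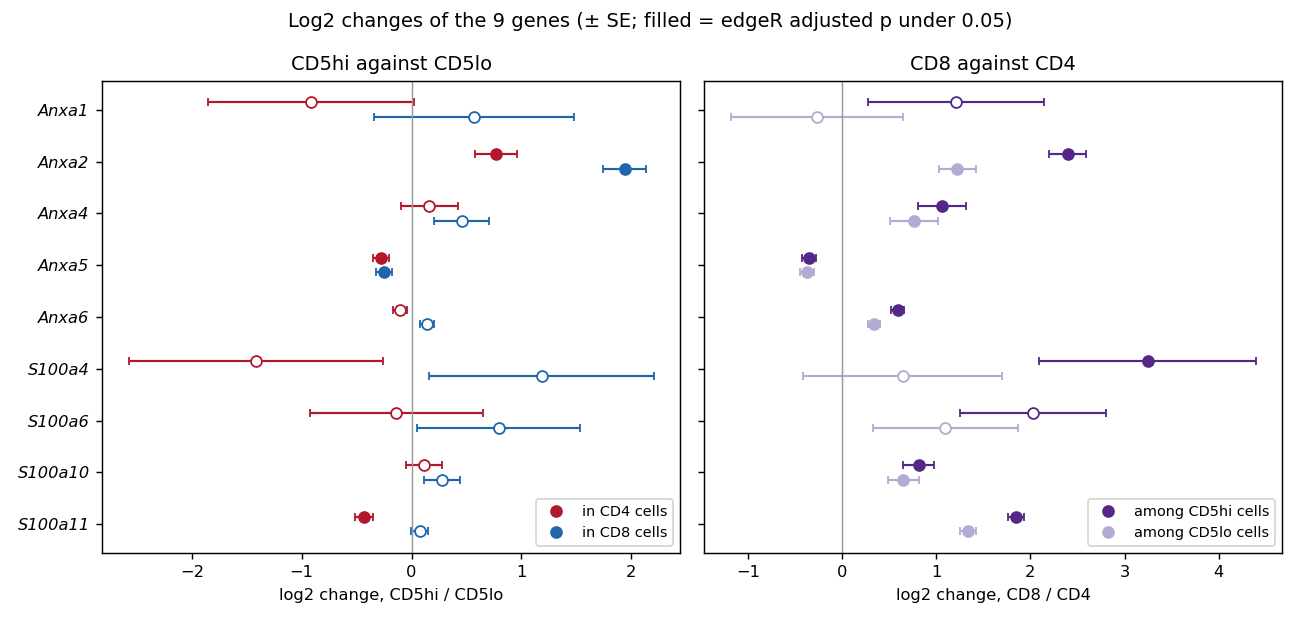
Log2 changes ± SE of the 9 genes (rows) for CD5hi against CD5lo (left panel, x axis log2 CD5hi / CD5lo) and CD8 against CD4 (right panel, x axis log2 CD8 / CD4); filled points have an edgeR adjusted p below 0.05. Anxa2 is at 1.94 in CD8 and 0.77 in CD4 cells on the left, and S100a11 at 1.85 and 1.34 on the right.

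Whether the CD5 difference itself differed between CD8 and CD4 cells was tested as an interaction. Limma voom called 0 of 9 members, and 0.155% of all genes higher and 0.148% lower. The main edgeR fit, without the replicate block, also called 0 of 9 members, and 0.177% of all genes higher and 0.133% lower. An unadjusted p below 0.05 was found for 3 members and for 7.53% of all genes. With the replicate number as a block, edgeR called 2 members, Anxa2 (1.17, adjusted p = 0.00635) and S100a11 (0.51, adjusted p = 0.00421), and 1.51% of all genes higher and 1.28% lower; the numbers paired the samples in CD4 cells and between lineages but not between CD5 levels in CD8 cells. DESeq2, without the block, called the same 2 members, and 0.944% of all genes higher and 0.642% lower. With a filter of 1 CPM in 4 libraries, edgeR without the block also called a member. That fit called 0.32% of all genes higher and 0.195% lower, and Anxa1, S100a4 and S100a6 did not pass its filter. For Anxa2 the CD8 effect exceeded the CD4 effect by 1.17 ± 0.27 on the log2 scale (95% interval 0.60 to 1.75; edgeR adjusted p = 0.0921). For S100a11 the difference was 0.51 ± 0.11 (95% interval 0.27 to 0.75; edgeR adjusted p = 0.0797), and for Anxa6 0.24 ± 0.09 (adjusted p = 0.426). With the 3 B-marker-rich libraries left out, Anxa2 (1.31, adjusted p = 0.0203) and S100a4 (3.57, adjusted p = 0.0345) were called, as were 0.626% of all genes higher and 0.324% lower. Without CD8 CD5hi replicate 4 alone, Anxa2 was called (1.30, adjusted p = 0.0238), with 0.783% of all genes higher and 0.425% lower. For Anxa5 the 2 effects differed by 0.03 ± 0.10 (95% interval -0.20 to 0.25; adjusted p = 0.9997).

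CD8 and CD4 cells were then compared at each CD5 level. Among CD5hi cells, 6 members were higher and 1 lower in CD8 than in CD4 cells; over all genes, 15.6% were called higher and 14.8% lower. Among CD5lo cells, 5 members were higher and 1 lower, against 10% and 9.44% of all genes. With the replicate block these shares of all genes were 23.4 and 23.3% among CD5hi cells and 15.7 and 16.3% among CD5lo cells. The member counts given here are without the block, so they are not to be set against those shares. With the block, S100a6 was called as well at high CD5. The CD5 and lineage comparisons share their samples, so they are not independent of each other. The share of all genes whose groups did not overlap was not computed for the lineage comparisons.

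S100a11 had 51.8, 48.0, 48.1 and 50.4 CPM in CD8 CD5hi libraries, against the 12.4 to 15.7 CPM of CD4 CD5hi libraries given above. Among CD5lo cells it had 49.4, 44.0, 45.0 and 49.9 CPM in CD8 libraries, against 17.1 to 20.4 CPM in CD4 libraries. No CD8 library came near a CD4 library at either CD5 level. The log2 change was 1.85 ± 0.08 at high CD5 (edgeR adjusted p = 1.56e-10) and 1.34 ± 0.08 at low CD5 (adjusted p = 6.06e-09).

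Anxa2 was also higher in CD8 cells, by 2.40 ± 0.20 at high CD5 (edgeR adjusted p = 1.50e-07) and 1.23 ± 0.20 at low CD5 (adjusted p = 0.000223). Its group means in CPM followed the order CD8 CD5hi (24.2 ± 6.36), CD8 CD5lo (6.30 ± 1.34), CD4 CD5hi (4.59 ± 0.49) and CD4 CD5lo (2.69 ± 0.51). Of neighbours in that order, CD8 CD5lo and CD4 CD5hi overlapped in range (4.67 to 7.95 and 4.07 to 5.13 CPM).

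S100a10 had 279.5, 187.5, 189.8 and 171.2 CPM in CD8 CD5hi libraries, against 147.7, 98.2, 110.7 and 113.6 CPM in CD4 CD5hi libraries. At low CD5 it had 212.0, 154.6, 164.0 and 150.9 CPM in CD8 libraries, against 130.9, 107.4, 96.8 and 98.4 CPM in CD4 libraries. Replicate 1 was the highest library in all 4 groups, and CD8 and CD4 libraries did not overlap at either level. The log2 change was 0.82 ± 0.16 at high CD5 (edgeR adjusted p = 0.00124) and 0.65 ± 0.16 at low CD5 (adjusted p = 0.00896).

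Anxa6 was higher in CD8 cells by 0.59 ± 0.06 at high CD5 (edgeR adjusted p = 3.14e-06) and 0.34 ± 0.06 at low CD5 (adjusted p = 0.000850). Its CPM in CD4 cells was 649.1, 651.3, 712.6 and 701.2 in CD5hi and 739.1, 637.6, 788.8 and 749.2 in CD5lo libraries, all below every CD8 library. Anxa5 went the other way, lower in CD8 cells by a log2 change of -0.35 ± 0.07 at high CD5 (adjusted p = 0.00185) and -0.38 ± 0.07 at low CD5 (adjusted p = 0.00150), again without overlap. The Anxa5 ranges of CD8 CD5lo and CD4 CD5hi libraries overlapped. In group means Anxa5 was lowest in CD8 CD5hi (39.6 ± 3.30 CPM) and highest in CD4 CD5lo cells (61.2 ± 3.78 CPM), and Anxa6 highest in CD8 CD5hi (1021 ± 26.3 CPM) and lowest in CD4 CD5hi cells (678.5 ± 33.1 CPM).

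Anxa4 had 2.09, 1.34, 0.923 and 1.64 CPM in CD8 CD5hi libraries, against 0.769, 0.569, 0.566 and 0.956 CPM in CD4 CD5hi libraries; the lowest CD8 and highest CD4 values overlapped. Its log2 change was 1.06 ± 0.25 at high CD5 (edgeR adjusted p = 0.00439) and 0.77 ± 0.25 at low CD5 (adjusted p = 0.0443). The second call held in 6 of 16 fits with 1 library left out (adjusted p up to 0.123, without CD8 CD5lo replicate 2; lost too without any CD4 CD5lo library, CD8 CD5lo replicate 1 or 3, CD4 CD5hi replicate 1, or CD8 CD5hi replicate 2 or 4). It was also lost with the 3 B-marker-rich libraries left out (0.70, adjusted p = 0.186).

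S100a4 was higher in CD8 than in CD4 cells at high CD5 by 3.25 ± 1.15 (edgeR adjusted p = 0.0433), where CD4 CD5hi libraries held 12, 4, 6 and 8 reads. The groups did not overlap, but only narrowly. CD8 CD5hi replicate 3 held 14 reads (0.162 CPM), against 12 reads (0.154 CPM) in CD4 CD5hi replicate 1. With the 3 B-marker-rich libraries left out the log2 change was 1.80 (adjusted p = 0.00815), and the call held in 7 of 16 fits with 1 library left out. It was lost without any 1 of the CD4 CD5hi libraries, without CD8 CD5hi replicate 2 or 4, and without CD4 CD5lo replicate 1, 2 or 4; without CD8 CD5hi replicate 4 the change was 1.78 (adjusted p = 0.233). At low CD5 the S100a4 value was 0.64 ± 1.06 (adjusted p = 0.776) and turned to -1.77 (adjusted p = 0.0503) without those libraries. S100a6 had 0.669, 0.977, 0.508 and 2.43 CPM in CD8 CD5hi libraries, against 0.257, 0.379, 0.206 and 0.277 CPM in CD4 CD5hi libraries, with no overlap. Its log2 change of 2.03 ± 0.78 was not called (edgeR adjusted p = 0.0602), was 2.05 with the replicate block (adjusted p = 0.0298) and 1.37 without the 3 libraries (adjusted p = 0.0296). At low CD5 it was 1.10 ± 0.77 (adjusted p = 0.400), and 1.74 without them (adjusted p = 0.0420) or 2.52 without CD4 CD5lo replicate 3 alone (adjusted p = 0.0291). Anxa1 was not called at either level, with 1.21 ± 0.93 at high CD5 (adjusted p = 0.362; 0.22 without the 3 libraries) and -0.27 ± 0.92 at low CD5 (adjusted p = 0.905; -1.72 without them, adjusted p = 0.164).

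Anxa1 and S100a4 were highest in the 3 libraries rich in B cell markers, and S100a6 in 2 of them, the third lying below CD8 CD5hi replicate 2. Anxa1 ranged from 0.549 to 1.03 CPM in those 3 and from 0 to 0.380 CPM in the other 13, S100a4 from 0.523 to 2.66 and from 0.0431 to 0.5 CPM, and S100a6 from 0.888 to 2.43 and from 0.0517 to 0.977 CPM. The granulocyte genes S100a8 and S100a9, S100 genes outside the 9 and also on chromosome 3, followed: S100a8 had 0.457 to 1.37 CPM in the 3 libraries and 0 to 0.136 CPM in the others, and S100a9 1.70 to 3.98 and 0 to 0.272 CPM. Anxa2, Anxa4, Anxa5, Anxa6 and S100a11 in the 3 libraries lay within the range of the others, and S100a10 lay below it in 1 of them, at 96.8 against at least 98.2 CPM. That range spans all 4 groups, so it cannot show these genes to be unaffected. Within its group, Anxa2 was lowest in CD8 CD5hi replicate 4 (17.7 CPM) and highest in replicate 3 of CD8 CD5lo (7.95 CPM) and CD4 CD5lo (3.38 CPM). Anxa5 was highest in the former (43.2 CPM) and lowest in the latter (44.9 and 55.9 CPM). Anxa4, Anxa6 and S100a10 were at an end of their group in some of the 3, and S100a11 in none. The part of B or myeloid cell RNA in the Anxa1, S100a4 and S100a6 values was not tested.

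**Figure D3:**
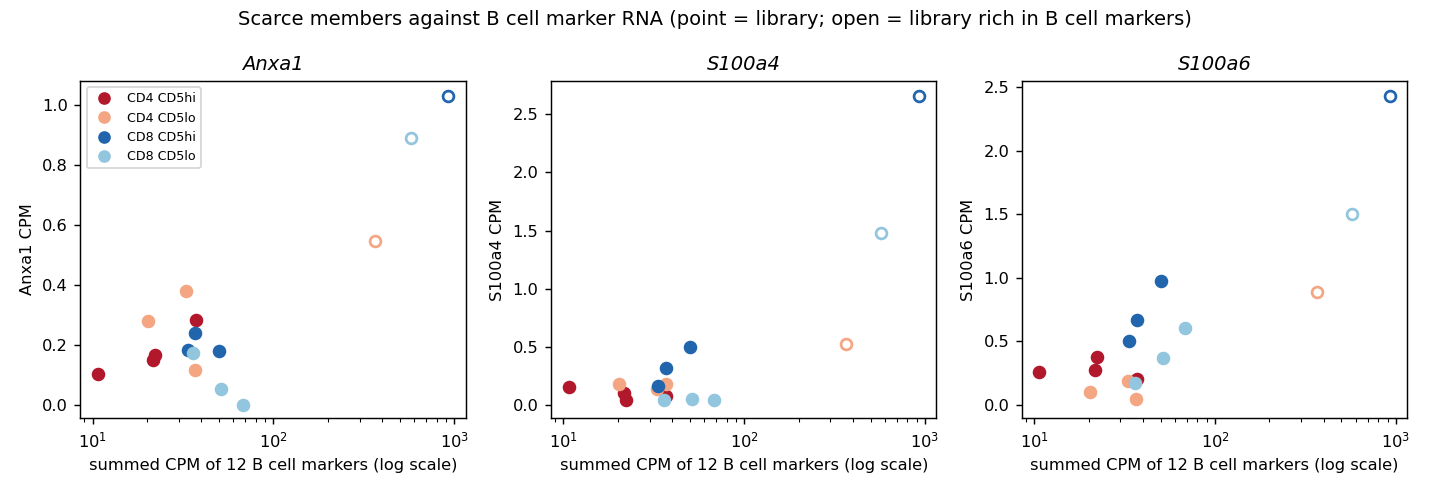
CPM of Anxa1, S100a4 and S100a6 (y axes) against the summed CPM of 12 B cell markers (x axis, log scale) in 16 libraries, coloured by group; open points are the 3 libraries rich in those markers. The open points lie at 366.3 CPM or more on the x axis and hold the highest Anxa1 and S100a4 values.

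S100a10 and Anxa2 encode the subunits of one complex, and their RNA was compared per kilobase. S100a10 RNA exceeded Anxa2 RNA in every library, with a ratio of RPKM of 27.2 ± 6.14 in CD8 CD5hi and 85.5 ± 18.7 in CD8 CD5lo cells (mean ± SD, n = 4). In CD4 cells the ratio was 80.2 ± 20.3 in CD5hi and 127.0 ± 26.8 in CD5lo libraries. In CD8 cells every CD5hi ratio was below every CD5lo ratio, with an exact two-sided permutation p of 0.0286, the smallest that 4 against 4 samples allow (0.0571 after Benjamini-Hochberg adjustment over the 4 ratio comparisons). In CD4 cells the exact permutation p was 0.0571 (adjusted 0.0762). At high CD5, CD8 against CD4 libraries gave an exact permutation p of 0.0286 (adjusted 0.0571), and at low CD5 0.0857 (adjusted 0.0857). Taking same-numbered libraries as pairs, the ratio was lower in 4 of 4 pairs in each comparison: in CD5hi than in CD5lo libraries of either lineage, and in CD8 than in CD4 libraries at either CD5 level. The exact sign-flip permutation p was then 0.125, the smallest that 4 pairs allow. The numbers did not pair CD8 CD5hi with CD8 CD5lo libraries (correlations 0.0274 and -0.0401 for replicates 3 and 4). CD8 CD5hi ratios, at most 32, lay below every CD8 CD5lo ratio (63.5 or more) and every CD4 CD5hi ratio (58.9 or more). Any pairing would therefore give 4 of 4 in these 2 comparisons.

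**Figure D4:**
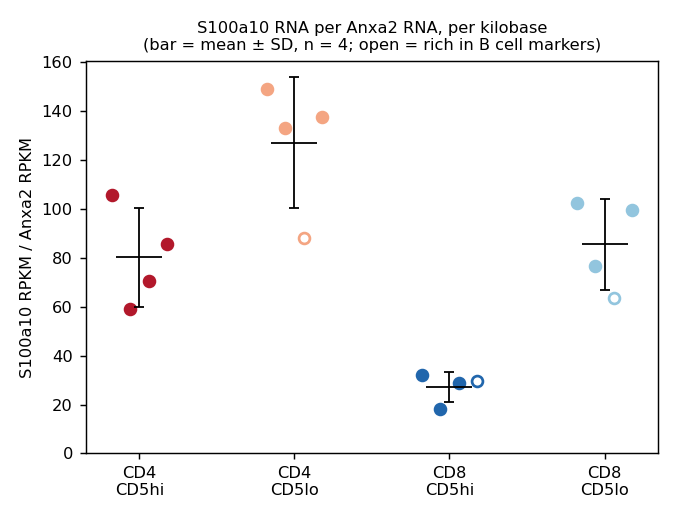
Ratio of S100a10 to Anxa2 RPKM (y axis, from 0) in each library of the 4 groups (x axis), with mean ± SD (n = 4); open points are the libraries rich in B cell markers. CD8 CD5hi libraries lie lowest, at a mean of 27.2.

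Across the 16 libraries, which share the lineage and CD5 differences between their groups, log2 CPM of Anxa2 ran against that of Anxa5 (Pearson r = -0.93; -0.64 after removing group means). Anxa6 and S100a11 ran together (r = 0.95; 0.38 within groups), as did S100a4 with Anxa1 (0.75; 0.76) and with S100a6 (0.68; 0.74), pairs that share the 3 libraries rich in B cell markers. By the same measure, over tested genes of at least 5 CPM, the 3 genes most like Anxa2 were Chaf1a (r = 0.98), Zfp318 (0.97) and Pole (0.97). Within groups their r was 0.80, 0.63 and 0.58. Predicted genes and clone names were left out of this search. The 3 most like S100a11 were Cd8b1, N4bp3 and Cd8a, each at 0.99, with 0.39 to 0.47 within groups. For Anxa5 they were Gfod2, Amigo2 and Il16 (0.96 to 0.97), for Anxa6 Vat1, Zfp358 and Nod1 (0.96 to 0.97), and for S100a10 Raver2, Zfp422 and Rab8a (0.96 to 0.97). For Anxa4 they were Cyp4v3, Ostf1 and Fars2 (0.89 to 0.90). For the scarce members they were Irf8, Unc93b1 and Gga2 with S100a4 (0.79 to 0.91), Icosl, Bend5 and Cd24a with S100a6 (0.86 to 0.93), and Plrg1, Emd and Cd79a with Anxa1 (0.66 to 0.72). These are descriptions over libraries, with no test.

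Of 7 other annexin genes, 3 were tested, and none was called for CD5 level in either lineage. Anxa7, an annexin of vesicle fusion, was higher in CD8 cells by 0.56 ± 0.12 at high CD5 (edgeR adjusted p = 0.00154) and 0.48 ± 0.12 at low CD5 (adjusted p = 0.00704), while Anxa11 differed by 0.02 ± 0.09 and 0.09 ± 0.09 and Anxa9 by 0.96 ± 0.35 (adjusted p = 0.0504) and 0.29 ± 0.35. Anxa8 and Anxa10 had 0 reads in every library, Anxa13 had 1 read in all, and Anxa3 had at most 21 in a library. Of 12 other S100 genes, 6 were tested. S100a13 was the most abundant of these, at 33.0 to 39.7 RPKM in group means, and its log2 change with CD5 level was 0.08 ± 0.14 in CD8 and 0.06 ± 0.14 in CD4 cells. S100a14 rose in CD4 CD5hi cells, at 0.378 ± 0.062 CPM against 0.174 ± 0.038 CPM in CD4 CD5lo cells (log2 change 1.12 ± 0.29; edgeR adjusted p = 0.0421), a call kept in 3 of 16 fits with 1 library left out and lost without the 3 libraries (1.26, adjusted p = 0.0722). It was lower in CD8 than in CD4 cells at high CD5, by a log2 change of -0.86 ± 0.29 (adjusted p = 0.0337), a call kept in 9 of 16 such fits (adjusted p up to 0.116) and lost without the 3 libraries (adjusted p = 0.0736). S100a1 was at 0.416 to 0.686 CPM and S100z at 0.0395 to 0.140 CPM in group means, neither of them called. S100a3, S100b, S100g and S100a16 had group means below 0.1 CPM, S100a5 had 2 reads in all, and S100a7a had 0.

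Of 9 genes for binding partners and receptors of these proteins, 8 were in the table and 5 tested. Ahnak, a giant scaffold bound by the S100A10 and annexin A2 complex, rose with CD5 in both lineages, and the other 4 tested were not called. Ahnak averaged 410.3 ± 50.8 CPM in CD8 CD5hi and 205.6 ± 34.0 CPM in CD8 CD5lo cells (log2 change 1.00 ± 0.20; edgeR adjusted p = 0.00525). In CD4 cells it averaged 88.88 ± 18 CPM in CD5hi and 48.9 ± 16.98 CPM in CD5lo libraries, with overlapping ranges (0.86 ± 0.20; adjusted p = 0.0234; called in 10 of 16 fits with 1 library left out). Between lineages it was higher in CD8 cells by 2.21 ± 0.21 at high and 2.07 ± 0.21 at low CD5, so Ahnak and Anxa2 were called in the same direction in all 4 of these comparisons. Lineage calls in this list numbered 2 higher and 1 lower at each CD5 level. Over all genes, 15.6% were higher and 14.8% lower at high CD5, and 10% and 9.44% at low CD5. Ager, which encodes the S100 receptor RAGE, averaged 11.03 ± 1.46 CPM in CD8 CD5hi and 28.1 ± 3.98 CPM in CD4 CD5hi cells (log2 change -1.35 ± 0.16; adjusted p = 7.78e-06).

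Of 10 genes of calcium-dependent membrane repair and calpains, 9 were tested; 1 was called in CD8 cells and 0 in CD4 cells. Capns1, the small calpain subunit, rose in CD8 CD5hi cells by 0.29 ± 0.06 (edgeR adjusted p = 0.00666). Of 16 other EF-hand calcium sensors, 3 rose and 1 fell in CD8 CD5hi cells and 0 were called in CD4 cells. Over all genes, 5.95% were called higher and 3.51% lower in CD8 cells, and 2.68% and 1.4% in CD4 cells. Tesc, the calcineurin-homologous protein tescalcin, fell (log2 change -0.63 ± 0.10; edgeR adjusted p = 0.000633), and Rcn1, a reticulocalbin of the endoplasmic reticulum, rose (0.37 ± 0.07; adjusted p = 0.00411). Efhd2 (0.38 ± 0.09; adjusted p = 0.00993) and Lcp1, the actin bundler plastin-2 (0.26 ± 0.07; adjusted p = 0.0304), also rose, the Lcp1 call holding in 13 of 16 fits with 1 library left out. Rcn1 was the only gene of this list whose CD5 effect was called as different between lineages (0.63 ± 0.10; adjusted p = 0.0196, and 0.0550 without CD8 CD5lo replicate 2).

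Of 16 memory-type T cell genes, 3 rose and 2 fell in CD8 CD5hi cells, and 3 rose and 1 fell in CD4 CD5hi cells. Over all genes, 5.95% were called higher and 3.51% lower in CD8 cells, and 2.68% and 1.4% in CD4 cells. In CD8 cells Itgb1, the integrin beta 1 chain, rose by 0.56 ± 0.08 (edgeR adjusted p = 0.000440) and Vim, vimentin, by 0.46 ± 0.07 (adjusted p = 0.000831). Cd44, the gene of the sort marker, was the third to rise in CD8 cells, by 1.33 ± 0.36 (adjusted p = 0.0268; called in 12 of 16 fits with 1 library left out), to 14.6 ± 6.43 CPM in CD8 CD5hi against 5.81 ± 2.14 CPM in CD8 CD5lo cells. Il2rb, the interleukin-2 receptor beta chain, rose in CD4 cells by 1.92 ± 0.24 (adjusted p = 0.000122), and Emp3, a membrane protein, fell in CD8 cells (-0.40 ± 0.07; adjusted p = 0.00238) and CD4 cells (-0.30 ± 0.07; adjusted p = 0.0266; called in 10 of 16 such fits). Across lineages, 9 of the 16 were higher and 1 lower in CD8 cells at high CD5, and 7 higher and 0 lower at low CD5. Over all genes, 15.6% were higher and 14.8% lower at high CD5, and 10% and 9.44% at low CD5. The 7 regulatory T cell markers, none at 0, summed to 338.4 to 419.6 CPM in CD4 CD5hi and 113.4 to 143.1 CPM in CD4 CD5lo libraries, and to 176.1 to 192.4 CPM in CD8 CD5hi and 97.9 to 142.6 CPM in CD8 CD5lo libraries. Izumo1r made up most of the CD4 CD5hi sum, at 262 CPM against 48.7 CPM in CD4 CD5lo cells. Foxp3 averaged 17.45 and 4.96 CPM and Ctla4 19.9 and 17.45 CPM in these 2 groups. Against 2.68% of all genes called higher, 4 of the 7 rose in CD4 CD5hi cells. They were Izumo1r, the folate receptor 4 gene (log2 change 2.43 ± 0.15; edgeR adjusted p = 6.08e-08), Ikzf2, which encodes the transcription factor Helios (2.63 ± 0.34; adjusted p = 0.000142), Foxp3, the lineage factor of regulatory T cells (1.81 ± 0.47; adjusted p = 0.0370; called in 8 of 16 fits with 1 library left out), and Tnfrsf18, the GITR gene (0.40 ± 0.11; adjusted p = 0.0439; called in 3 of 16). In CD8 CD5hi cells 2 rose, Izumo1r (1.01 ± 0.14; adjusted p = 0.000339) and Ikzf2, at 42.6 ± 11.1 CPM against 15.1 ± 4.58 CPM in CD8 CD5lo cells (adjusted p = 0.00534). The 6 natural killer markers, with Klra4 at 0 throughout, summed to 5.26 to 7.66 CPM in CD8 CD5hi and 1.92 to 5.85 CPM in CD8 CD5lo libraries. In CD4 cells they summed to 0.463 to 0.718 CPM in CD5hi and 1.35 to 2.17 CPM in CD5lo libraries. Of the 2 tested, Klrb1c, the NK1.1 gene, rose in CD8 CD5hi cells (1.86 ± 0.40; edgeR adjusted p = 0.00767), and Gzma, granzyme A, fell in CD4 CD5hi cells (-3.03 ± 0.43; adjusted p = 0.000361). The 10 stromal and endothelial markers, 4 of them below 0.1 CPM over the 13 other libraries, summed to 145.4 to 172.9 CPM in CD8 and 229.9 to 273.5 CPM in CD4 libraries. Nearly all of this sum was 1 gene, Pecam1, so the sum mostly follows that gene. Pecam1 averaged 150.6 CPM in CD8 CD5hi, 159.3 in CD8 CD5lo, 265.8 in CD4 CD5hi and 246.6 CPM in CD4 CD5lo cells. Cdh5, an endothelial cadherin, rose in CD8 CD5hi cells, to 1.34 ± 0.51 CPM against 0.571 ± 0.168 CPM in CD8 CD5lo cells (edgeR adjusted p = 0.0141; called in 15 of 16 fits), and Col1a1, a collagen chain, rose in CD4 CD5hi cells, to 1.08 ± 0.27 CPM against 0.404 ± 0.134 CPM in CD4 CD5lo cells (adjusted p = 0.0218; called in 12 of 16). The 7 erythroid and platelet markers summed to at most 12.3 CPM in any library, with Hbb-bt, Hba-a1, Pf4 and Ppbp at 0; Itga2b, the platelet integrin alpha chain, fell in CD8 CD5hi cells (-0.63 ± 0.13; edgeR adjusted p = 0.00611). Whether more cells of these other kinds in a sorted group contribute to the Anxa2, Anxa5 or S100a11 differences was not tested.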

How the data were processed

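RNA was measured in 16 samples, 4 groups of 4. Per the labels' protocols, TRIzol and RNeasy served for extraction and either a TruSeq RNA version 2 or a TruSeq stranded mRNA kit for the libraries; the sources used here do not tell the kit of a sample or whether counting used strand. Tools named in the submitters' processing notes were featureCounts 1.4.6-p3, STAR 2.5.2a and DESeq2; the build named is mm10. The deposited counts are integers per gene, not normalised as far as their values show. Low counts, 1 to 9, were mostly even numbers (73.9 to 80.5% per library), so they overstate precision; halved counts were run as an alternative added once this had been noticed in the data.

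Computed here were edgeR 4.0.16 quasi-likelihood tests (R 4.3.3; TMM factors 0.981 to 1.02; filterByExpr with minimum count 10 and total 15; 1 term per group; 12 residual degrees of freedom), two-sided, adjusted by Benjamini-Hochberg over 13554 genes per comparison, with 5 comparisons. Intervals are 95%; limits for 0 reads cover counting error only. The pairing of S100a10 to Anxa2 ratios was added with the data in view. DESeq2 1.42.0, limma 3.58.1 voom, other filters and scalings, a replicate block and leaving out libraries were alternatives. Same-numbered samples deviated together in CD4 cells (correlations 0.251 to 0.534) and between lineages (0.203 to 0.704), so the block is given beside those results where it changes a call or a count. The members and gene lists were chosen with earlier results of these data known. By rule all 9 members were named, all other annexins and S100 genes, up to 4 called genes per other list, the sorted genes (except one not reported here) and the 3 genes most like each member; Ager and S100a8 and S100a9 as a pair with the scarce members were singled out after their values were seen. The NF-kB motif was likewise shortened after a first search.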

Additional observations from a re-analysis of the deposited data

Results flagged for a closer look

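In 5 cases 1 library lay far from the other 3 of its group, by a gap above Dixon's 95% critical value, out of 36 gene and group pairs checked; chance alone flags about 1 in 20. Anxa1 was at 1.029 CPM in CD8 CD5hi replicate 4, against 0.182 to 0.241 CPM in the other 3 libraries (gap 0.93 of the range). S100a4 was at 2.655 CPM in CD8 CD5hi replicate 4, against 0.162 to 0.5 CPM, at 1.476 CPM in CD8 CD5lo replicate 3, against 0.0431 to 0.0528 CPM, and at 0.5225 CPM in CD4 CD5lo replicate 3, against 0.136 to 0.181 CPM. S100a6 was at 0.8882 CPM in CD4 CD5lo replicate 3, against 0.0517 to 0.190 CPM. All 5 values are in the 3 libraries whose 12 B cell markers sum to 366.3 CPM or more.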

How the results depend on the processing

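Of the alternative values for the members, the S100a10 to Anxa2 ratio and the other called genes, 1934 kept direction and side of the threshold, 162 lost a call, 21 gained one and 18 changed sign. The 1934 include values that were uncalled in both fits. They also include the paired ratios, which could not gain a call because the smallest sign-flip p was 0.125. With 1 library left out, member calls ranged from 1 to 3 in the CD4 and in the CD8 CD5 comparison and from 0 to 1 for the difference between lineages. The share of all genes called higher then ranged from 1.89 to 2.97% in CD4 and from 3.73 to 6.95% in CD8 cells. The share called lower ranged from 0.895 to 1.65% and from 1.66 to 5.1%. For the difference between lineages, 0.00728 to 0.783% were higher and 0.051 to 0.425% lower. The CD8 count of 2 fell to 1 with no low-count filter and when only the groups compared were fitted, where Anxa5 lost its call. The shares of all genes called fell as well, from 5.95% higher and 3.51% lower. They were 3.97% and 1.97% with no low-count filter, and 4.29% and 1.88% when only those groups were fitted. The CD4 count of 3 fell to 2 with library totals only (Anxa5, adjusted p = 0.0517), with no low-count filter (Anxa5, 0.0518), when only the groups compared were fitted (Anxa5, 0.077) and with limma voom (Anxa2). In that order, 2.7, 1.73, 2.37 and 2.79% of all genes were called higher. The shares called lower were 1.31, 0.929, 1.18 and 1.31%, where the main fit gave 2.68% higher and 1.4% lower. For the difference between lineages, members called numbered 1 with a filter of 1 CPM in 4 libraries, 2 with DESeq2, 2 with the replicate block and 2 with the 3 B-marker-rich libraries left out. With that filter, 0.32% of all genes were called higher and 0.195% lower, and Anxa1, S100a4 and S100a6 were not tested. The sign changed only for uncalled values. With 1 library left out, the log2 change ranged from -0.44 to 2.39 (Anxa1) and from -0.28 to 4.22 (S100a4) for CD5 in CD8 cells; from -0.0095 to 0.26 (Anxa4), -0.011 to 0.22 (S100a10) and -0.49 to 1.28 (S100a6) for CD5 in CD4 cells; from -0.019 to 0.082 (Anxa5), -0.0065 to 0.30 (S100a10) and -0.48 to 1.71 (S100a6) for the difference between lineages; and from -2.09 to 0.16 (Anxa1) and -2.39 to 1.26 (S100a4) for CD8 against CD4 cells at low CD5. The S100a4 value at low CD5 was -0.97 with limma voom and -1.77 without the 3 libraries; that of S100a6 for CD5 in CD4 cells was 0.62 with limma voom, 0.30 with the replicate block and 1.28 without the 3 libraries, and its difference between lineages -0.36 without them. The cause was not tested. Replicate numbers did not pair the samples in the CD8 CD5 comparison (correlations 0.562, 0.255, 0.0274 and -0.0401; 2 of 4 libraries matched best with their own number). There the replicate block called 3 members, S100a10 in addition at 0.27 (edgeR adjusted p = 0.00649), and 1813 genes higher and 1577 lower, against 806 and 476; when only those groups were fitted, 565 and 248 genes were called, without CD8 CD5hi replicate 2 512 and 251, and without CD8 CD5lo replicate 4 583 and 228. For the difference between lineages the block called 205 higher and 174 lower, against 24 and 18 without it, 128 and 87 with DESeq2, 85 and 44 without the 3 libraries, and from 1 and 7 (without CD8 CD5lo replicate 2) to 107 and 58 (without CD8 CD5hi replicate 4) with 1 library left out; in CD4 cells it called 771 and 541, against 363 and 190.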
